A study of Caenorhabditis elegans with 9 samples.

Results

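The comparison set *Caenorhabditis elegans* raised in 500 uM hemin against worms raised in 4 uM hemin, the highest and the lowest of 3 concentrations in the series. It drew on 6 of 9 Affymetrix whole genome arrays, chosen by the hemin concentration in their titles: 3 arrays at 500 uM (500A, 500B and 500C) and 3 at 4 uM (4A, 4B and 4C). The labels call the arrays of a concentration biological replicates. All worms were synchronized F2 larvae moved into fresh mCeHR-2, a liquid medium without bacteria, and all were harvested as late L4 larvae, the last stage before the adult. Strain and genotype are not given in the sources used here. The 500 and 4 uM groups thus differed, as labelled, in hemin alone, and RNA came from whole animals. The 3 arrays at 20 uM (20A, 20B and 20C) entered the estimate of the spread, and their levels are given beside some genes without a comparison. Each array gave 1 log2 level for each of 22548 worm probe sets, and 16911 of these were tested after the dimmest 25% were left out.

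Heme is an iron-containing ring that serves as cofactor of catalases, cytochromes and globins, and the free molecule is toxic. *C. elegans* cannot make heme and depends on uptake by the intestine, from which heme is passed on to other tissues. Hemin is the chloride of the oxidised form and is the only heme source that the labels name for these worms. In the intestine HRG-4 imports heme at the cell surface, HRG-1 releases it from lysosome-related compartments, MRP-5 exports it, and HRG-3 is secreted and carries it to extraintestinal tissues and to embryos.

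Array 4A stood apart from the rest. Its Spearman correlations across probe sets were 0.973 to 0.978 with the 500 uM arrays and 0.979 to 0.985 with 4C and 4B, while the lowest among the other 8 arrays was 0.990. The first principal component of the 6 arrays took 58.1% of the variance and placed 4A at -49.2, 4B at -8.24 and 4C at 3.94, with all 500 uM arrays at 13.9 or more. Results are therefore given with all arrays and without 4A. A probe set was called where limma's test gave a Benjamini-Hochberg adjusted p under 0.05, and differences are 500 minus 4 uM hemin on the log2 scale, so that a positive one is higher at 500 uM.

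Transcript levels of 5 of 7 heme transport genes and all 5 tested yolk protein genes were lower at 500 than at 4 uM hemin. So were those of 12 of 28 eggshell, oocyte and embryo genes, 30 of 67 sperm genes and 13 of 140 cuticle collagen genes. The sperm count fell to 2 without 4B, without 500B or in a fit of only the 6 arrays. Of 130 C-type lectin genes 9 were higher and 5 lower at 500 uM, and of 18 cathepsin-like genes 1 was higher and 4 lower. Worms at 500 uM had higher levels of some members of the defence, lysosomal lipase and sphingomyelinase lists. A total of 350 probe sets, 2.07% of those tested, differed by limma, with 130 higher (0.769%) and 220 lower (1.3%) at 500 uM. Without 4A there were 395 calls (2.34%), 148 higher and 247 lower (0.875% and 1.46%). Of the calls with all arrays 310, or 88.6%, were also called without 4A, which is 78.5% of the calls without it, and all 310 kept their sign. The 350 differences ran between -5.49 and 4.27 with a median size of 1.04, and 185 were at least 2-fold, 50 of them higher and 135 lower. At least 4-fold differences numbered 39, with 10 higher and 29 lower. Over all tested probe sets the median difference was 0.00047, or 0.02 without 4A, and the median standard error was 0.12. Counts depended on single arrays: 168 probe sets were called without 4B, 175 without 500B and 682 without 4C, and 144 were called in every fit that left out 1 of the 9 arrays.

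**Figure D1:**
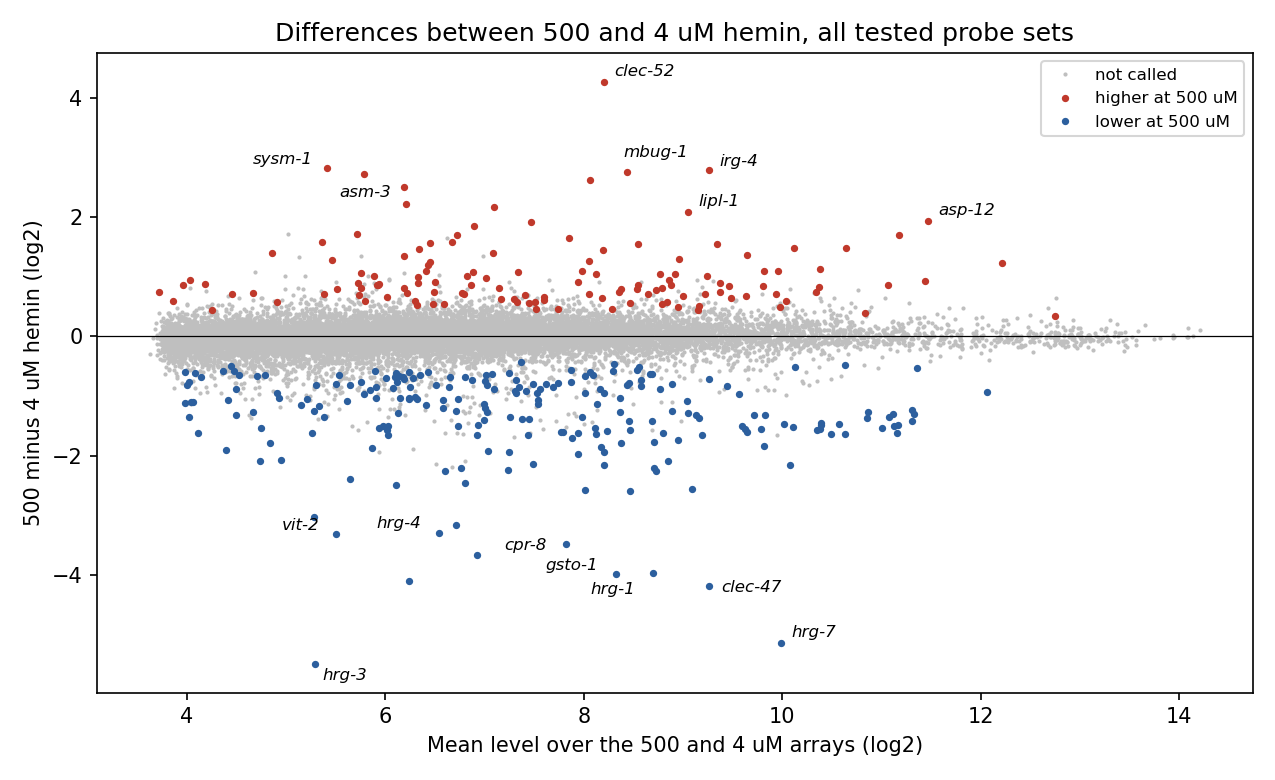
Difference between 500 and 4 uM hemin (log2, y axis) against the mean level over these 6 arrays (log2, x axis) for the 16911 tested probe sets, 1 point each, with calls in red (130 higher at 500 uM) and blue (220 lower). The largest differences were falls, with hrg-3 at -5.49 and hrg-7 at -5.15, while clec-52 was the largest rise at 4.27.

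Gene lists were read with 1 probe set per gene, which gave 280 called genes among 12840 tested (2.18%), 111 higher (0.864%) and 169 lower (1.32%). Without 4A the shares were 2.56% in all, 1.03% higher and 1.53% lower. In 1069 genes (8.33%) all 3 arrays at 500 uM lay above all 3 at 4 uM, and in 895 (6.97%) all lay below. Without 4A these shares were 15.1% and 9.38%. An unadjusted p under 0.05 was found in 1621 genes, or 12.6%, the share against which such counts in the lists are to be read.

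Of 7 heme transport genes 5 fell at 500 uM and 0 rose, beside the 1.32% of all tested genes that fell. Their median difference was -3.29, and -4.04 without 4A, when 6 of the 7 were called. Leaving out 1 array at a time gave 4 to 6 calls, with 4 without 4B, 20C or any 1 of the 500 uM arrays. These lists were drawn up with earlier results of these arrays known, so the counts are descriptions of the members.

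The importer gene *hrg-1* (R02E12.6) read 6.53, 6.75 and 6.84 on 500A, 500B and 500C, against 10.55, 10.75 and 10.74 on 4A, 4B and 4C. No array of one concentration came near any array of the other. The difference of -3.98 (SE 0.11, limma adjusted p = 9.74e-08) was 15.7-fold. On the 20 uM arrays *hrg-1* read 6.58 to 6.82, within the span of the 500 uM arrays.

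The surface importer gene *hrg-4* (F36H1.5) read 4.69, 5.09 and 4.90 at 500 uM, against 6.35, 8.89 and 9.33 at 4 uM. The 4 uM values split, with 4A more than 2 log2 units below 4B and 4C though still above every 500 uM array. The difference of -3.29 (SE 0.60, limma adjusted p = 0.0222) became -4.21 without 4A, with an adjusted p of 4.06e-07. Its call was the one lost without 4B, 20C or any 1 of the 500 uM arrays. Levels at 20 uM were 5.68 to 5.82.

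Transcripts of *hrg-3* (F58E6.7), the secreted heme carrier, read 2.58, 2.47 and 2.57 at 500 uM, against 7.09, 8.41 and 8.59 at 4 uM. This was the largest difference in the comparison, -5.49 (SE 0.31, limma adjusted p = 1.9e-05). The 500 uM levels lie close to 2.02, the lowest value in the whole table, and without detection calls the difference is a lower bound. At 20 uM *hrg-3* read 2.27 to 2.42, equally close to that lowest value.

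The gene *hrg-7* (C15C8.3) encodes a secreted protein of the aspartic protease family that acts in heme signalling between the intestine and neurons. It read 7.41, 7.27 and 7.56 at 500 uM, against 12.44, 12.58 and 12.66 at 4 uM, so the groups lay far apart. The difference of -5.15 (SE 0.14, limma adjusted p = 9.74e-08) was 35.4-fold, and 4A lay within 0.3 log2 units of 4B and 4C. The 20 uM arrays read 8.24 to 8.73, all above the 3 arrays at 500 uM.

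Smaller differences were found for the exporter and for the TANGO2-like genes. The exporter gene *mrp-5* (F14F4.3) read 8.97, 8.67 and 8.90 at 500 uM, against 10.13, 10.39 and 10.50 at 4 uM, a 2.82-fold fall (limma adjusted p = 0.000187). A second probe set of *mrp-5* fell by 1.65. The gene *hrg-9*, related to human TANGO2, which takes part in mobilising heme inside cells, read 4.71, 4.65 and 4.71 at 500 uM, against 4.67 on 4A and 5.49 on 4B, with 4C close to 4B. The groups overlapped at 4A, and the difference of -0.49 was not called (limma adjusted p = 0.336), whereas without 4A it was -0.75 and called (adjusted p = 0.00334). A second probe set of *hrg-9* differed by -0.27, and by -0.41 without 4A, and was called in neither fit (limma adjusted p = 0.486 and 0.139). The related gene *hrg-10* differed by -0.14 and was not called in either fit. RNA of whole animals cannot tell less RNA per cell from fewer cells of a type, and which of these applied was not tested.

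**Figure D2:**
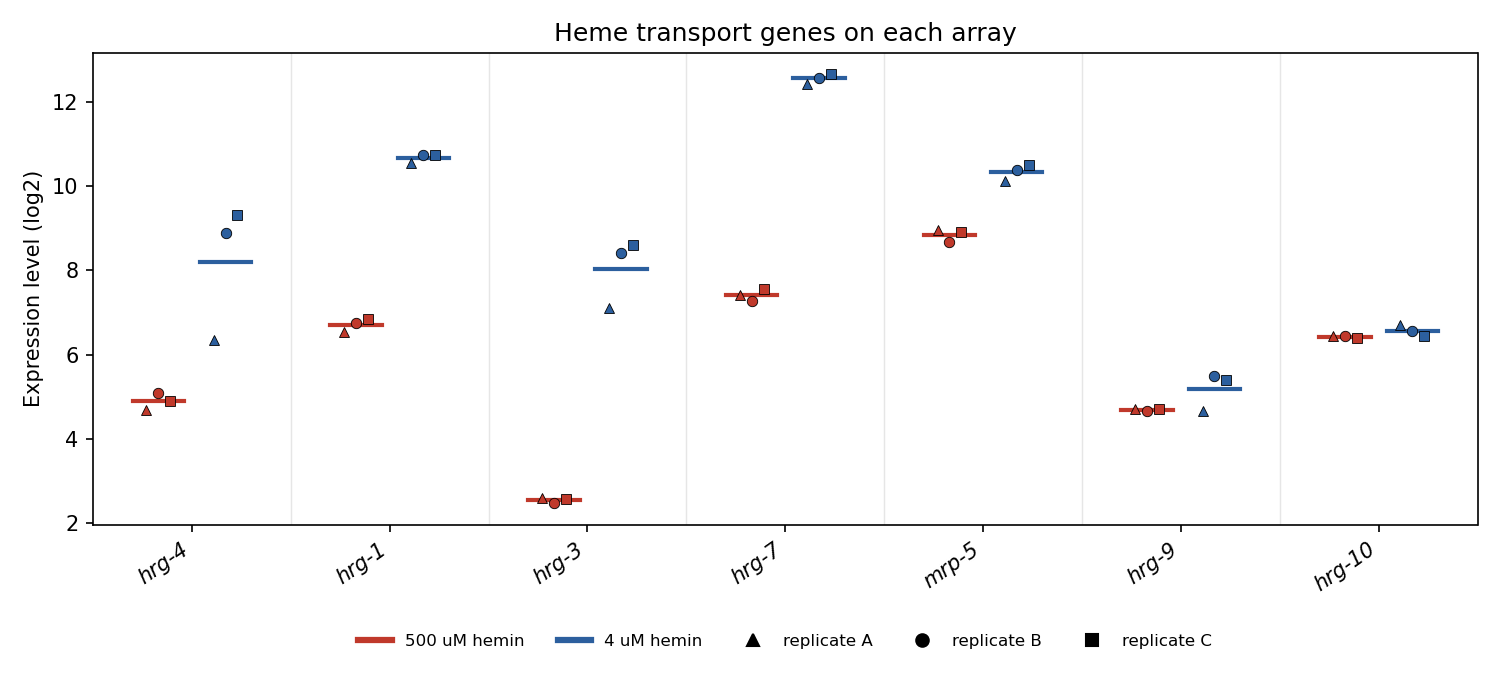
Expression levels (log2, y axis) of the 7 heme transport genes on each array, with 500 uM hemin in red left of 4 uM hemin in blue, symbols for replicates A, B and C and bars for group means of 3 arrays. In hrg-1, hrg-3, hrg-7 and mrp-5 the groups are far apart, and in hrg-4 and hrg-9 the triangle of 4A lies below the other 4 uM arrays.

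For genes that use or store heme and iron, calls are to be read beside the 2.18% of all tested genes that were called. Of 10 genes for heme handling and insertion, and of 21 globins, 0 were called by limma, with 2 and 0 at an unadjusted p under 0.05. Of 10 iron genes 1 rose: *fpn-1.2*, which encodes a ferroportin, the family of cellular iron exporters. It read 6.82, 6.74 and 6.76 at 500 uM, against 5.89, 5.90 and 5.84 at 4 uM, a rise of 0.90 (SE 0.10, limma adjusted p = 0.00137) with wide room between the groups. The ferritin gene *ftn-1* read 7.62, 7.89 and 7.64 at 500 uM, against 9.28, 8.25 and 7.97 at 4 uM, and was not called (difference -0.78, limma adjusted p = 0.37). All 500 uM values of *ftn-1* lay below the 4 uM values, but 4A was more than 1 log2 unit above its fellows and the difference without it was -0.39. Of 9 genes of the HIF-1 pathway 0 were called, 4 had an unadjusted p under 0.05, and their median was -0.36 beside a 4A that exceeded the other 4 uM arrays by a median of 0.72.

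Single genes of metal and oxidant defence rose. The metallothionein gene *mtl-1*, whose product binds metal ions, rose by 1.01 (SE 0.17, limma adjusted p = 0.0176), a call lost without 500B or 500C. It was the only call among 6 metallothionein and cdr genes. The catalase gene *ctl-2*, which encodes a peroxisomal heme enzyme that breaks down hydrogen peroxide, read 9.61, 9.84 and 9.81 at 500 uM, against 9.05, 8.67 and 8.48 at 4 uM. Its rise of 1.02 (SE 0.14, limma adjusted p = 0.00501) was the only call among 16 superoxide dismutase, catalase and peroxiredoxin genes. The probe set of *ctl-2* carries a suffix that marks possible cross-hybridisation. Of 20 copper and zinc transport genes 0 were called, and 0 had an unadjusted p under 0.05.

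Detoxification genes changed one by one. The omega-class glutathione transferase gene *gsto-1* (C29E4.7) read 6.12, 6.34 and 6.53 at 500 uM, against 9.91, 10.36 and 10.70 at 4 uM. Its difference of -3.99 (SE 0.18, limma adjusted p = 3.18e-06) was 15.9-fold, while its family members *gsto-2* and *gsto-3* differed by -0.12 and 0.08 and were not called. Levels of *gsto-1* at 20 uM, 6.69 to 6.80, lay just above the 500 uM arrays.

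Counts in the following families are to be read beside the 0.864% of all tested genes that rose and the 1.32% that fell. Glutathione transferases of other classes numbered 37 tested genes, with 2 higher and 2 lower and a median of 0.06. The falls were *gst-19* at -1.53 and *gst-29* at -0.90, and the rises, *gstk-1* by 0.62 and *gst-7* by 0.58, were each called in only 2 of 9 fits that left out an array. UDP-glucuronosyltransferases, which attach sugars to small molecules, had 4 of 53 higher and 4 lower, or 3 higher and 11 lower without 4A, and 1 or 2 lower without any other single array. Of the UDP-glucuronosyltransferase rises 1 was left without 500B or in a fit of only the 6 arrays of 500 and 4 uM. The rises were led by *ugt-18*, 2.30-fold higher, and among the falls *ugt-17* fell by 1.65. Of 46 cytochrome P450 genes, heme enzymes that oxidise small molecules, *cyp-14A5* rose by 0.81 while *cyp-33C9* fell by 1.07 and *cyp-35A2* fell by 0.77. Among 48 ABC transporters outside *mrp-5*, 3 rose and 0 fell: *pgp-1*, a P-glycoprotein gene, by 0.90, *pmp-1* by 0.87 and *abt-4* by 0.55. Of 30 short-chain dehydrogenase genes *dhs-28* rose by 0.59 and *dhs-7* fell by 0.69. A second probe set of *dhs-28* differed by 0.21 and was not called (limma adjusted p = 0.419). Several of these calls were lost in fits that left out 1 array: *cyp-14A5* was called in 3 of 9, *cyp-35A2* in 6, *pmp-1* in 5, *abt-4* in 7, *dhs-28* in 2 and *dhs-7* in 1.

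Genes of lysosomal enzymes moved in both directions. The cathepsin-like list had 4 of 18 lower and 1 higher. The cathepsin B-like protease gene *cpr-8* (W07B8.1) read 5.81, 6.07 and 6.37 at 500 uM, against 9.58, 9.54 and 9.58 at 4 uM. Its 4 uM arrays were nearly equal, and the difference of -3.48 (SE 0.13, limma adjusted p = 9.52e-07) was 11.2-fold. The cathepsin A-like gene *ctsa-4.1* read 7.29, 7.24 and 6.97 at 500 uM, against 9.40, 9.81 and 10.07 at 4 uM, and fell by 2.60. Its relative *ctsa-4.2* fell by 0.97 and *cpr-5* fell by 0.93. The rise was *cpr-3* at 0.81, named after its values were seen and read from a probe set with a suffix that marks possible cross-hybridisation. It was not called without 4A (limma adjusted p = 0.055), 20C, 500A or 500B, and without 4A the list's 1 rise was *cpr-1* at 0.59, also named after its values were seen.

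Aspartic proteases outside *hrg-7* had 2 of 11 higher and 2 lower. The gene *asp-12* read 12.53, 12.51 and 12.28 at 500 uM, against 10.89, 10.47 and 10.14 at 4 uM, a rise of 1.94 (SE 0.16, limma adjusted p = 0.000219). At 20 uM it read 11.68 to 11.80, between the other concentrations. The gene *asp-8* fell by 1.56 and *asp-7* fell by 0.68. The cathepsin D-like gene *asp-3* rose by only 0.34, a call made in 2 of 9 fits that left out an array.

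Some genes of enzymes that degrade lipids in lysosomes rose and others did not pass the test. Of 6 tested lipases of the lipl family 3 rose and 0 fell, with a median of 0.81, in every fit that left out 1 array. The gene *lipl-1* read 10.25, 10.04 and 9.97 at 500 uM, against 8.55, 7.77 and 7.69 at 4 uM, a rise of 2.08 (SE 0.20, limma adjusted p = 0.000733). The genes *lipl-2* and *lipl-5* rose by 1.58 and 1.27, and the other 3 lipases, which were not called, differed by -0.10 to 0.35. All 5 genes of acid sphingomyelinases and ceramidases, which split sphingolipids, had positive differences with groups that did not overlap, beside 8.33% of all genes, and 2 were called. The sphingomyelinase gene *asm-3* read 6.70, 7.61 and 7.65 at 500 uM, against 5.53, 5.04 and 4.71 at 4 uM, a rise of 2.23 (SE 0.27, limma adjusted p = 0.0021), and *asm-2* rose by 1.05. The 20 uM arrays read 7.54 to 7.85 for *asm-3*, level with the higher 500 uM arrays.

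C-type lectins, secreted sugar-binding proteins of which many are made by the intestine and respond to microbes, had the largest rise and one of the largest falls. Of 130 tested 9 rose and 5 fell, or 13 and 6 without 4A, with 6 rises left without 4B, 500A or 500B, and their median of 0.02 was close to that of all genes. The largest rise of the comparison was *clec-52* (B0218.8), with 10.27, 10.37 and 10.39 at 500 uM, against 6.94, 6.03 and 5.25 at 4 uM. The 500 uM arrays agreed closely while the 4 uM arrays spread over more than 1.5 log2 units, and the rise of 4.27 (SE 0.33, limma adjusted p = 0.000132) was 19.3-fold. At 20 uM *clec-52* read 9.15 to 9.42, nearer to 500 than to 4 uM.

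Other lectin genes that rose included *clec-60* by 2.63, *clec-174* by 2.51 and *clec-72* by 1.65. The probe set of *clec-174* carries a suffix that marks possible cross-hybridisation, and *clec-72* is its neighbour in the genome. The opposite was seen for *clec-47* (T09F5.9), which read 5.96, 7.68 and 7.86 at 500 uM, against 11.12, 11.55 and 11.38 at 4 uM. Here 500A lay well below its fellows, and the difference of -4.18 (SE 0.48, limma adjusted p = 0.00155) was -3.58 without 500A and still called. The gene *clec-45* read 4.03, 3.82 and 3.47 at 500 uM, against 5.79, 7.10 and 7.51 at 4 uM, and fell by 3.03. The remaining falls, *clec-87*, *clec-91* and *clec-88*, named after their values were seen, were between -1.15 and -0.78.

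Genes of lysozymes, saposin-like proteins and other defence products had 7 of 57 higher and 0 lower, or 11 higher and 1 lower without 4A. There were 5 rises without 4B, 500A or 500C, and 4 in a fit of only the 6 arrays of 500 and 4 uM. The infection response gene *irg-4* (F08G5.6) read 11.17, 10.48 and 10.32 at 500 uM, against 8.16, 7.75 and 7.68 at 4 uM, a rise of 2.80 (SE 0.21, limma adjusted p = 0.000128). The rises of *spp-18*, a saposin-like gene, *dod-19* and *irg-8* were 2.57-fold, 2.14-fold and 1.67-fold. Outside the list, *sysm-1* (T24B8.5), a common reporter gene of the p38 immune pathway in worms, read 8.30, 6.21 and 5.98 at 500 uM, against 4.26, 3.69 and 4.06 at 4 uM. Its 500A value lay more than 2 log2 units above the other 500 uM arrays, and the rise of 2.83 (SE 0.50, limma adjusted p = 0.019) was 2.09 without 500A and lost its call without 4B.

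Array 500A was the highest 500 uM array in 10 of the 16 lectin and defence genes that rose and the lowest in 5, beside 47 and 44 of all 111 genes that rose. Array 4A was the highest 4 uM array in 12 of the same 16 genes and the lowest in 4, beside 47 and 48 of all 111 genes that rose. The small heat shock genes were also highest there: *hsp-16.2* read 9.44, 6.10 and 6.77 at 500 uM, against 7.45, 5.47 and 4.47 at 4 uM, and *hsp-16.41* read 9.06, 4.26 and 4.31 against 6.09, 3.85 and 2.52. Both genes were highest on replicate A at 500 and at 4 uM, their groups overlapped and neither was called (limma adjusted p = 0.489 and 0.597). Of 13 cytosolic heat shock genes 0 were called or had an unadjusted p under 0.05. The part of this array difference in the lectin and defence rises was not tested further, and without 500A *irg-4*, *clec-60*, *clec-174* and *mbug-1* still rose, by 2.54, 2.29, 2.12 and 2.37.

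**Figure D3:**
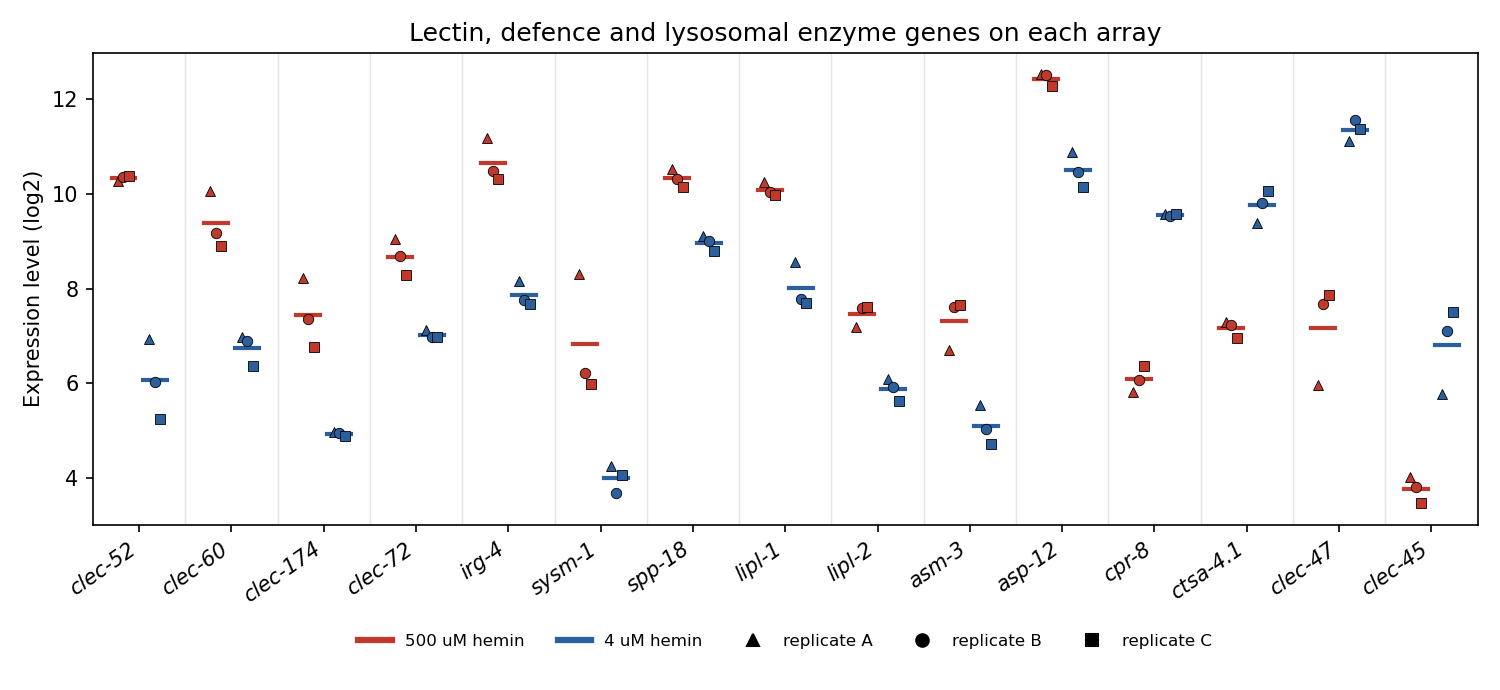
Expression levels (log2, y axis) of 15 lectin, defence and lysosomal enzyme genes on each array, with 500 uM hemin in red left of 4 uM hemin in blue, symbols for replicates and bars for group means of 3 arrays. The first 11 genes were higher at 500 uM and the last 4 lower, and the triangle of 500A is the highest 500 uM value in clec-60, clec-174, clec-72, irg-4, sysm-1 and spp-18.

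The other large rises carried no list. The gene *mbug-1* (F55G11.4) read 10.62, 9.33 and 9.52 at 500 uM, against 6.66, 7.27 and 7.23 at 4 uM, a rise of 2.76 (SE 0.35, limma adjusted p = 0.00267). A rise of 1.85 was measured for F01D5.3 and of 1.70 for F49F1.5, neither of which has a name in the annotation used. The gene *fil-1*, a fasting-induced lipase gene, read 7.04, 6.43 and 6.23 at 500 uM, against 5.15, 4.82 and 4.59 at 4 uM, a rise of 1.71. Of the 350 called probe sets 99 were of genes known by a sequence name alone, 48 higher and 51 lower, and 33 could not be given a single symbol.

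Yolk genes and part of the oocyte, eggshell and sperm genes were lower at 500 uM. All 5 tested vitellogenin genes, which encode yolk proteins made in the intestine of egg-forming worms, fell, with a median of -2.46. There were 3 calls without 4B, 500A or 500B and 4 or 5 without any other single array. The gene *vit-2* (C42D8.2) read 2.95, 4.08 and 4.50 at 500 uM, against 6.58, 7.56 and 7.36 at 4 uM, a difference of -3.32 (SE 0.44, limma adjusted p = 0.00345). The differences of *vit-6*, *vit-4* and *vit-1* were -2.58, -2.46 and -1.08. Of 3 probe sets of *vit-4* only 1 was called with all arrays. The others differed by -2.20 and -0.29 (limma adjusted p = 0.106 and 0.427), and the former was called without 4A. A second probe set of *vit-6* fell by 3.66 and was called. For *vit-5* the difference of -2.20 (limma adjusted p = 0.0449) was called in 1 of 9 fits that left out an array. The probe sets of *vit-4* and *vit-5* carry the cross-hybridisation suffix.

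In the eggshell, oocyte and embryo list 12 of 28 fell and 0 rose, with all 28 differences negative and a median of -0.66. Leaving out 1 array gave 7 calls without 4B or 500A, 8 without 500B or 500C, and 19 without 4C. A fit of only the 6 arrays of 500 and 4 uM gave 7. The gene *perm-2*, needed for the permeability barrier of the eggshell, read 6.06, 6.15 and 6.63 at 500 uM, against 8.35, 8.21 and 8.11 at 4 uM, a difference of -1.94 (SE 0.16, limma adjusted p = 0.000254). A second probe set of *perm-2* differed by -0.68 (limma adjusted p = 0.0199), a call lost without 4B, 500A, 500B or 500C. The eggshell proteoglycan gene *cpg-3* fell by 1.39. Genes of maternal RNA-binding proteins fell as well, with differences of -1.07 for *pos-1* and -0.85 for *puf-5*.

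Of 67 sperm genes 30 fell and 0 rose, or 28 without 4A, with medians of -1.03 and -0.70. The smallest p-values were those of *msp-76* (-1.47), *msp-63* (-1.54), *msp-38* (-1.83) and *msp-49* (-1.38), members of the major sperm protein family. These genes are near copies of each other and many of their probe sets cannot tell them apart, so they are not 30 separate observations. There were 2 calls without 4B or without 500B, 4 without 500C, 7 without 20C, 14 or 15 without 500A, 20A or 20B, and 46 without 4C. A fit of only the 6 arrays of 500 and 4 uM also left 2 calls. The levels differed within the 4 uM group: relative to the mean of the 6 arrays the list stood at -0.31, -0.71 and -0.38 on 500A, 500B and 500C, against 1.00, 0.42 and -0.01 on 4A, 4B and 4C. Array 4C thus lay close to the mean of the 6 arrays.

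Cuticle collagens had 13 of 140 lower and 0 higher, 15 lower without 4A, and a median of -0.23, or -0.15 without 4A. There were 7 calls without 4B and 21 without 4C. Relative to the mean of the 6 arrays the list stood at -0.17, -0.29 and -0.12 on 500A, 500B and 500C, against 0.37, 0.18 and 0.02 on 4A, 4B and 4C, so that here too 4C lay close to the mean. The adult collagen gene *col-19* read 4.25, 4.98 and 5.33 at 500 uM, against 7.41, 7.39 and 7.26 at 4 uM, a difference of -2.50 (SE 0.32, limma adjusted p = 0.00299). It read 4.45, 5.03 and 5.74 on 20A, 20B and 20C. The other adult-onset collagen gene tested, *col-63*, read 9.56 to 10.70 at 500 uM, against 9.74 to 12.04 at 4 uM, with overlapping groups and no call (difference -0.66, limma adjusted p = 0.608, and -0.10 without 4A). The gene *col-122* read 7.43, 7.84 and 8.16 at 500 uM, against 10.68, 10.39 and 10.02 at 4 uM, and fell by 2.56. The genes *col-184* and *col-8* differed by -1.77 and -1.21.

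Yolk, oocyte, sperm and adult collagen transcripts change as larvae turn into adults, and a difference of stage between the groups was not tested. Beside them, 36 genes of germline proliferation and meiosis had 0 calls by limma, 1 unadjusted p under 0.05 and a median of -0.08. Of 23 molting genes 0 were called, with 2 at an unadjusted p under 0.05, and of 68 hedgehog-related and patched-related genes, many of them cyclic in larval development, 0 were called and 8 had an unadjusted p under 0.05. Histones had 4 of 35 lower, *his-39*, *his-4*, *his-1* and *his-38*, with differences of -0.68 to -0.58, and core histone genes of a class are near copies, so their probe sets may not tell them apart. Without 500C 1 of these calls was left, and 2 without 500A. A fit of only the 6 arrays of 500 and 4 uM left 0.

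Tissue marker lists had no calls by limma. In 13 intestine, 10 hypodermis, 17 body wall muscle, 15 pharynx and 19 neuron markers 0, 0, 2, 3 and 2 had an unadjusted p under 0.05, beside 12.6% of all genes. The mean intestine level was 9.31 to 9.46 on the 500 uM arrays, against 9.17 to 9.45 at 4 uM, the low end being 4A. The mean hypodermis level was 8.10 to 8.23, against 8.04 to 8.29, and that of body wall muscle 10.80 to 10.86, against 10.88 to 10.96. The pharynx markers averaged 8.11 to 8.24 at 500 uM, against 7.68 to 8.15 at 4 uM, and the neuron markers 7.26 to 7.35, against 7.03 to 7.30, again lowest on 4A.

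**Figure D4:**
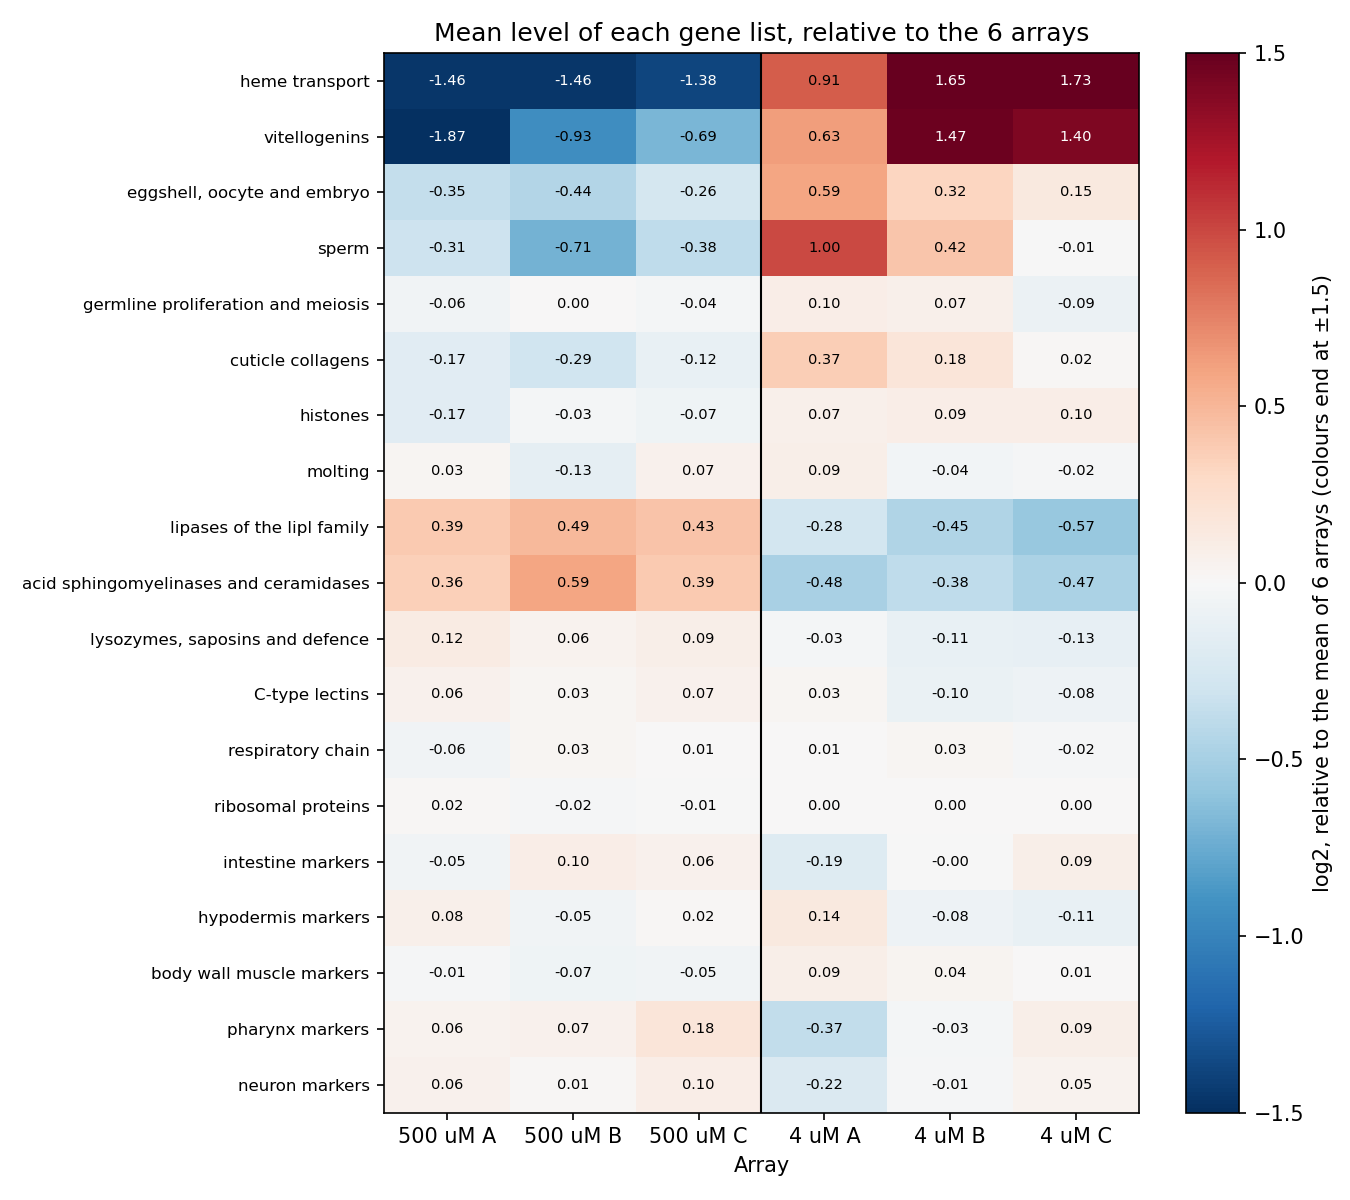
Mean level of the tested genes of 19 lists on each array, relative to the mean of the 6 arrays (log2, colour and printed value), with the 500 uM arrays left of the 4 uM arrays. Heme transport and vitellogenins are low on every 500 uM array and high on every 4 uM array, the sperm list stands at 1.00 on 4A and -0.01 on 4C, and the tissue marker lists stay within 0.37 of their means.

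Fatty acid metabolism had 6 of 73 higher and 2 lower, with a median of 0.05. The rises numbered 3 without 500A or 500B, 4 without 4B and 8 without 4C, and 1 fall was left without any single array other than 500C. The desaturase gene *fat-5*, which makes palmitoleic acid, read 9.01, 8.95 and 8.95 at 500 uM, against 8.29, 8.01 and 8.05 at 4 uM, a rise of 0.86 (SE 0.10, limma adjusted p = 0.00187). The genes *hacd-1*, named for a hydroxyacyl-CoA dehydrogenase, and *ech-7*, for an enoyl-CoA hydratase, enzyme types of fatty acid oxidation, rose by 0.85 and 0.56. The other rises, named after their values were seen, were *ech-9* at 1.91, the acyl-CoA oxidase genes *acox-1.5* at 1.11 and *acox-3* at 0.71, and *ech-9* was not called without 4A (limma adjusted p = 0.056). The lipid-binding protein gene *lbp-3* fell by 1.42.

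The pair *pud-3* and *pud-4*, known as proteins raised in daf-2 mutants, rose by 1.55 and 1.44. The gene *pud-3* read 9.08, 9.29 and 9.58 at 500 uM, against 7.96, 7.60 and 7.74 at 4 uM (SE 0.18, limma adjusted p = 0.00161). At 20 uM it read 11.63, 10.99 and 11.36, higher than every array of the other concentrations. The call of *pud-4* (limma adjusted p = 0.022) was lost without 20C, 4B, 500B or 500C.

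Calls in the remaining lists are to be read beside the 2.18% of all tested genes that were called. Of 27 genes of insulin-like peptides and insulin signalling *ins-35* (3.7%) rose by 1.05, a call made in 4 of 9 fits that left out an array. Of 74 neuropeptide genes *nlp-33* (1.35%) fell by 0.51 and was not called without 4A (limma adjusted p = 0.0774). Among nuclear hormone receptor genes 0 were called, with 20 at an unadjusted p under 0.05, and *nhr-202* fell by 0.89 in the fit without 4A, its only call in this list. Ribosomal protein genes had 0 calls of 80 and 2 unadjusted p-values under 0.05. Genes of the respiratory chain, several of whose complexes carry heme, had 0 calls of 38 and 0 unadjusted p-values under 0.05. Those of endoplasmic reticulum and mitochondrial stress had 0 calls of 23 and 6 unadjusted p-values under 0.05.

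**Figure D5:**
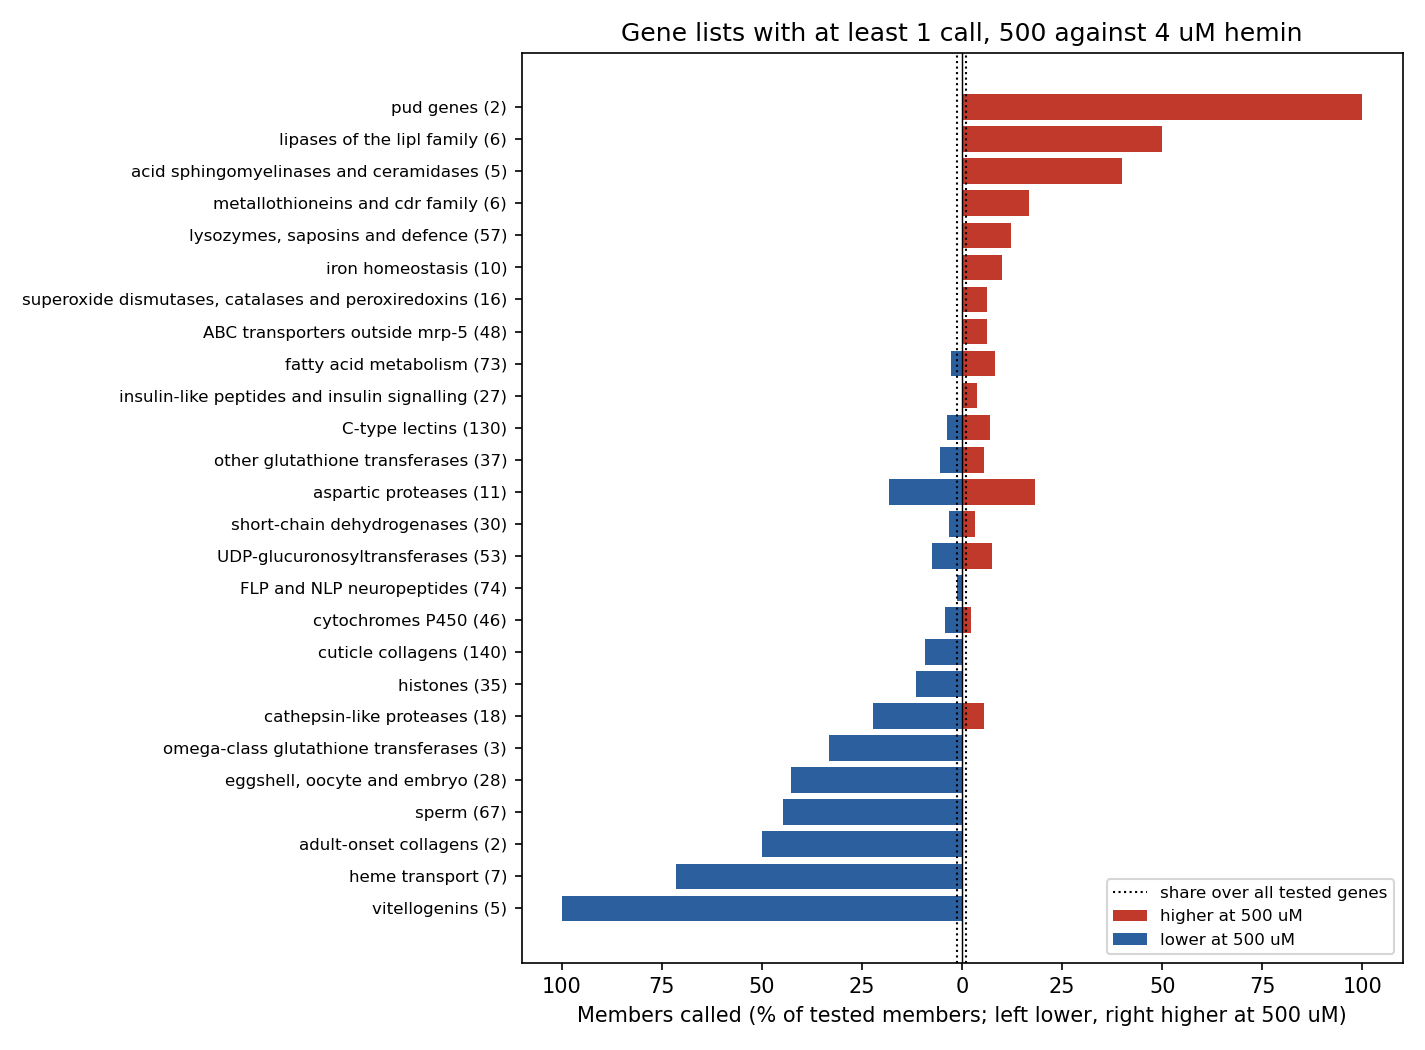
Share of tested members called higher (red, right) or lower (blue, left) at 500 uM hemin than at 4 uM (% of members, x axis) for the 26 lists with at least 1 call, with the number of tested members in brackets and dotted lines at the shares over all tested genes, 0.864% higher and 1.32% lower. Vitellogenins (5 of 5) and heme transport (5 of 7) have the largest lower shares and the pud genes (2 of 2) and lipl lipases (3 of 6) the largest higher shares.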

How the data were processed

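Per the submitters' processing notes MAS5 and RMA were applied to the arrays, and the sources used here do not say which of them made the deposited log2 values. These values were used without further normalization in the main fit, and all lay between 2.02 and 14.37. The median level was 5.57 on 4A and 5.43 to 5.47 on the other arrays. Without detection calls no background level could be set, and without scan dates no batch could be looked for.

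From the 22625 probe sets the 77 array controls were dropped. Symbols came from the platform annotation, in which 20766 probe sets had 1 symbol, 887 several and 895 none. Any 2 of the 6 arrays shared 244 to 975 identical values, so none was a copy of another. The number of arrays limited the precision.

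After removal of the dimmest 25% (mean of all arrays), limma 3.58.1 in R 4.3.3 fitted 1 mean per concentration to the 9 arrays, with 6 residual degrees of freedom and a variance trend on the mean level. Two-sided p-values were adjusted by Benjamini-Hochberg over 16911 probe sets (threshold 0.05), and errors are limma's standard errors. A gene with several probe sets was represented by its brightest. Named were the 12 largest rises and 12 largest falls called with and without 4A and with groups that did not overlap. Added to these were every tested heme transport, iron homeostasis, pud and vitellogenin gene. From each other list at most 4 genes were added, those of smallest p. Genes named beyond this are marked in the text. The arrays, lists and members were chosen with earlier results of these data known. In simulated data over 16911 probe sets the limma step recovered 76% of log2 changes of 1 and 34% of changes of 0.5, and 4.11% of its calls were false. The simulated noise was independent between probe sets and had the same spread on every array. It did not hold array-wide differences such as that of 4A, so these shares may not apply to the data. Alternatives were other sets of arrays, array weights, the replicate letter as a block, other scalings, filters and variance priors, a fold threshold and other ways to join the probe sets of a gene. Python 3.11.15, pandas 2.3.3 and matplotlib 3.10.9 handled tables and figures.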

Additional observations from a re-analysis of the deposited data

How the results depend on the processing

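With all arrays limma called 350 probe sets, 130 higher and 220 lower at 500 uM hemin. Array weights gave 813 (345 higher, 468 lower), with a weight of 0.148 for 4A against 3.93 for 4B. Fitting only the 6 arrays gave 159 (57 and 102), and 216 (75 and 141) without 4A. Where 1 of the 9 arrays was left out the counts ran between 168 and 682 in all, 67 and 186 higher, and 101 and 496 lower; the most came without 4C, the fewest without 4B. A single 20 uM array also moved the count, to 221 without 20C. The cause was not tested. Quantile normalization and centring shifted the median of all differences by 0.02 and 0.03 and gave 361 and 357 calls. With the replicate letter as a block there were 321 calls (124 higher, 197 lower), or 302 without 4A. Deviations of 500 and 4 uM arrays of one letter from their group means correlated at 0.208, 0.216 and -0.152 for A, B and C. Correlations from so few arrays cannot decide whether the letters pair the samples. Of 182 named genes 82 were called, 57 of them under every alternative, and no called gene reversed. Over the alternatives of named genes 180 values lost a call and 27 gained one. Of the calls on lists and their medians 223 values moved and 2615 did not. A change of 0.5 on the log2 scale was recovered in 34% of simulated cases, in which every array had the same spread. The share missed in the data may differ, and small differences can go uncalled with 3 arrays a group.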

Other observations

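Called genes that lie next to each other among the measured protein-coding genes of the annotation, and that moved the same way, were counted after the data were seen. There were 20 such runs, 8 higher and 12 lower at 500 uM hemin, holding 42 of the 280 called genes. The longest held Y39G8B.7, F01D5.1, F01D5.2 and F01D5.3, with rises of 1.08 to 1.85. Among the pairs that rose were *clec-174* with *clec-72*, *dod-19* with *irg-8*, *hacd-1* with *fpn-1.2*, *ugt-43* with *ugt-44* and *T16G1.7* with *T16G1.6*. Among those that fell were *cpr-5* with *cpr-8*, *asp-8* with *asp-7*, *perm-4* with *perm-2* and *clec-88* with *ctsa-4.1*. Neighbours of similar sequence can share probes, and no chance level was computed.

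Some large differences belonged to probe sets outside the rule for named genes and were chosen after their values were seen. A probe set without a gene symbol read 4.05, 4.29 and 4.23 at 500 uM, against 7.47, 8.66 and 8.74 at 4 uM, a 17.2-fold fall (limma adjusted p = 9.59e-05). The 2 probe sets of R193.2 differed by -3.17 and -2.25. A probe set of F09C8.1 read 7.16, 7.30 and 6.98 at 500 uM, against 4.65, 4.35 and 4.27 at 4 uM, a rise of 2.73 (SE 0.12, limma adjusted p = 3.18e-06). The gene F58E6.4, named from the same cosmid clone as *hrg-3* (F58E6.7), fell by 2.07 and read 4.01, 3.82 and 3.90 at 500 uM, against 4.94, 6.15 and 6.85 at 4 uM.

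Of 45 genes with several tested probe sets and at least 1 call, all probe sets were called in 23, and all had one sign in 44.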
